A study of Rattus norvegicus with 8 samples.

Results

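This account covers 4 genes of the steroid hormone signalling machinery in castrated rats given testosterone: Nr3c1, the glucocorticoid receptor; Nr3c2, the mineralocorticoid receptor; and Fkbp5 and Fkbp4, which encode the cochaperones FKBP51 and FKBP52. They were taken by gene name from the gene spots of the array, every probe included, which gave 6 probes of 30367 in all. Of these, 3 were measured well enough to be tested (1 each for Nr3c1, Fkbp5 and Fkbp4), among 12074 probes kept of the whole array.

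Each of 8 Agilent 2-colour arrays carried RNA of castrated male Wistar rats, adults of 120 ± 12 days, given 1 subcutaneous dose of testosterone propionate, an injectable testosterone ester, at 4 mg/kg in 1 mL/kg corn oil. The other channel held RNA of castrated rats labelled as control, so castration is common to all groups, and no group of intact animals was analysed here. RNA was compared 8 h (4 arrays) and 24 h (4 arrays) after the dose. The labels do not say whether the controls received oil, whether an array held 1 animal or a pool, or which muscle was taken; the tissue is known only from the series title, which concerns muscle atrophy, and the labels call the material cells. The series text calls the 4 arrays of a time biological replicates with swapped dyes, without saying whether swapped arrays reuse an extract; if they do, part of the spread behind the p-values is technical and the p-values are too low. In bulk RNA, fewer cells of a type and less RNA per cell cannot be told apart.

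Steroid receptors are transcription factors that wait in the cytoplasm in a complex with HSP90 and its cochaperones until a hormone binds. FKBP51 and FKBP52 compete for the same place in that complex: FKBP52 favours hormone binding and transport of the receptor to the nucleus, and FKBP51 lowers hormone binding by the glucocorticoid receptor. Fkbp5 is a well known target gene of several steroid receptors, so its product forms a short feedback loop on them. In skeletal muscle, glucocorticoids acting through Nr3c1 promote protein breakdown, while androgens are anabolic.

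The results rest on single 60-base probes, so the sequences of both cochaperone probes and of 1 probe of the receptor that could not be measured are given 5′ to 3′, as the array files list them. In the Nr3c2 probe, capitals mark the TGA stop codon with which the reading frame of its first base ends; nothing is marked in the others. For Fkbp5 the first 30 bases are given, and for the other probes all 60.
Fkbp5 A_44_P532249: gagtggtgggtaagcagatgacattgaaat
Fkbp4 A_44_P179282: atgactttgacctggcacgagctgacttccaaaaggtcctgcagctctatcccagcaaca
Nr3c2 A_64_P014537: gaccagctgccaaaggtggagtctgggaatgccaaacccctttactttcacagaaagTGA
On rn4, the build of the array's annotation, the Fkbp5 probe lies at chr20:6637600-6637659 and the Fkbp4 probe at chr4:165450629-165450688, both on the minus strand. The Fkbp4 probe has no stop codon in the reading frame of its first base or in the frame that opens at base 3. The whole Fkbp5 probe has 4 in the former frame and none in the latter. The Nr3c2 probe shown lies at chr19:32530204-32530263, and the gene's other probe, at chr19:32528010-32528068, starts 2194 bases lower on the same strand. The Nr3c1 probes lie at chr18:32375401-32375460 (A_64_P269447) and chr18:32371607-32371666 (A_44_P1003794), 3794 bases apart. No exon annotation of rn4 was used here, so whether the probes are exonic is taken from none of these positions.

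Fkbp5 was the member that changed: it was higher in RNA of testosterone-treated rats at 24 h on 4 of 4 arrays. The log2 ratios of treated over control at 24 h were 0.91, 0.93, 0.69 and 0.90 in replicates 1 to 4. All 4 arrays were high, and replicate 3 was the lowest. The mean was 0.86 ± 0.11 (SD, n = 4), a 1.81-fold higher level, with a 95% confidence interval of 0.67 to 1.04 on the log2 scale and an adjusted p = 0.000379 in limma's moderated test, adjusted by Benjamini-Hochberg over all kept probes. Among the 3 member probes tested, Fkbp5 alone passed the threshold of 0.05 on the adjusted p at 24 h, against 6.92% of the 12073 probes tested (4.15% higher and 2.77% lower). It ranked 43 by p and 36 by the size of the rise. The call was kept without any 1 of the 8 arrays, with values from 0.83 to 0.93 and adjusted p from 0.000223 to 0.0072.

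At 8 h Fkbp5 was also above the control on every array, but by less, and it did not pass. The log2 ratios were 0.50, 0.32, 0.09 and 0.45 in replicates 1 to 4, so replicate 3 lay nearest to 0. The mean was 0.34 ± 0.18 (SD, n = 4; 95% confidence interval 0.16 to 0.53) with an adjusted p = 0.27 in limma. None of the 3 member probes passed at 8 h, where 0.0249% of 12069 probes did (3 probes, against 2037 at an unadjusted p under 0.05). Fkbp5 and Fkbp4 had an unadjusted p under 0.05 in limma. The Nr3c1 probe did too, but it met the filter only through the 8 h controls, so its p at 8 h is no test of a response. Replicate 2 at 8 h stood apart, with a mean correlation of 0.04 (log2 ratios across genes) with the other arrays of its time, against 0.17 to 0.32 for those. Without it 1293 probes passed at 8 h, Fkbp5 stood at 0.35 (adjusted p = 0.0533) and Fkbp4 at 0.16 (adjusted p = 0.189), and Nr3c1 passed, as given with its values and under the same limit. Replicate 1 at 8 h differed in another way, with an SD of log2 ratios across genes of 0.44, against 0.18 to 0.20 on the other 8 h arrays. With single arrays left out, the count at 8 h ran from 0 to 1293 and the adjusted p of Fkbp5 at 8 h from 0.0533 to 0.911 in limma. The Fkbp5 log2 ratios given above did not overlap between 8 h and 24 h. In the scanner software's own processed signals they did, at 0.38 to 2.03 and 1.48 to 2.30. By the ratios given above, the difference between the times was 0.52, with a confidence interval of 0.25 to 0.78. It missed the threshold with an adjusted p = 0.0696 in limma, and 1.26% of all probes passed that comparison. Weighting the arrays by their quality gave 0.60 and an adjusted p = 0.0296. Each time had its own slide, and the 2 cannot be told apart.

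**Figure D1:**
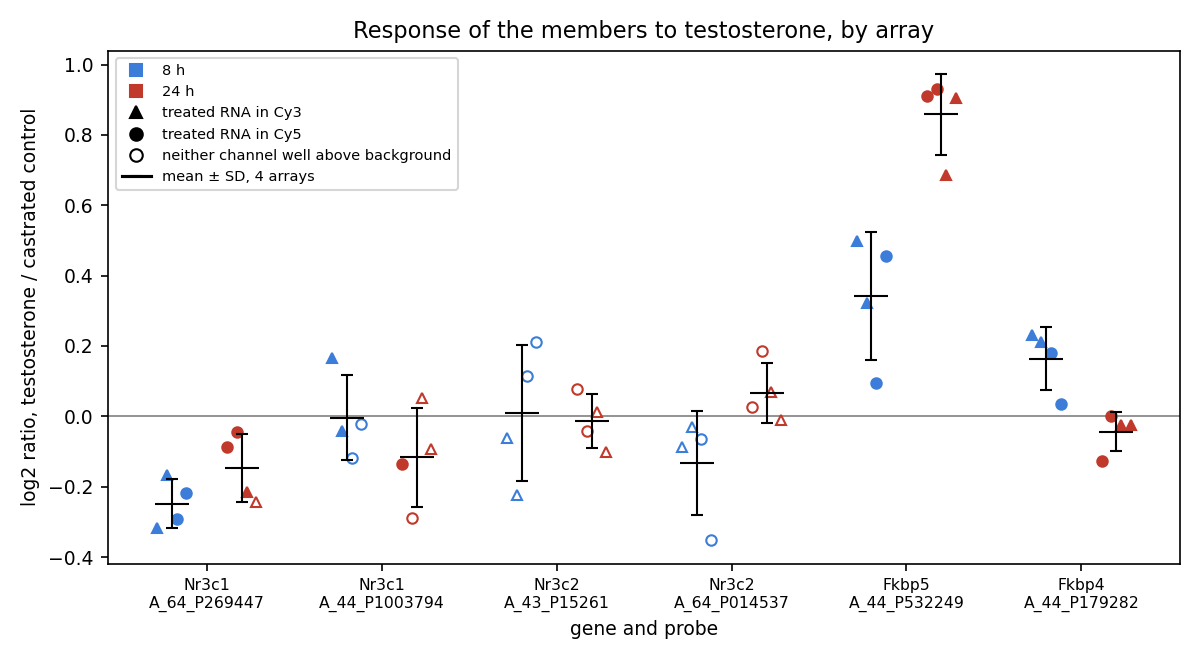
Log2 ratio of testosterone-treated over castrated control RNA (vertical axis) for the 6 member probes (horizontal axis), with 1 point per array, 8 h in blue and 24 h in red. Shapes give the dye of the treated RNA, open points are arrays on which neither channel was well above background, and bars are the mean ± SD of 4 arrays; Fkbp5 at 24 h stands at 0.69 to 0.93, above every other point.

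Fkbp5 was higher in both dye orientations. At 24 h the mean log2 ratio was 0.80 on the 2 arrays with treated RNA in Cy3 and 0.92 on the 2 with treated RNA in Cy5. At 8 h these means were 0.41 and 0.27.

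The size of the Fkbp5 difference depended on how the background was handled, and its signals were low. At 24 h the mean spot signals of the treated channel ran from 99.1 to 416 intensity units and those of the control channel from 60.1 to 85.9, over local backgrounds of 34 to 45. The treated channel was well above background on all 4 arrays at both times, and the control channel on 3 of 4 arrays at 24 h and 2 of 4 at 8 h. From the scanner software's own processed signals, which equal the authors' deposited log2 ratios, the log2 ratio at 24 h was 1.97 ± 0.36 (SD, n = 4; adjusted p = 0.00324 in limma), or 3.91-fold. The 4 arrays then stood at 1.48, 1.95, 2.30 and 2.14. The same signals gave 1.21 ± 0.68 at 8 h (adjusted p = 0.154 in limma), with arrays between 0.38 and 2.03. The direction was the same throughout, and the 1.81-fold value is the smaller of these estimates.

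**Figure D2:**
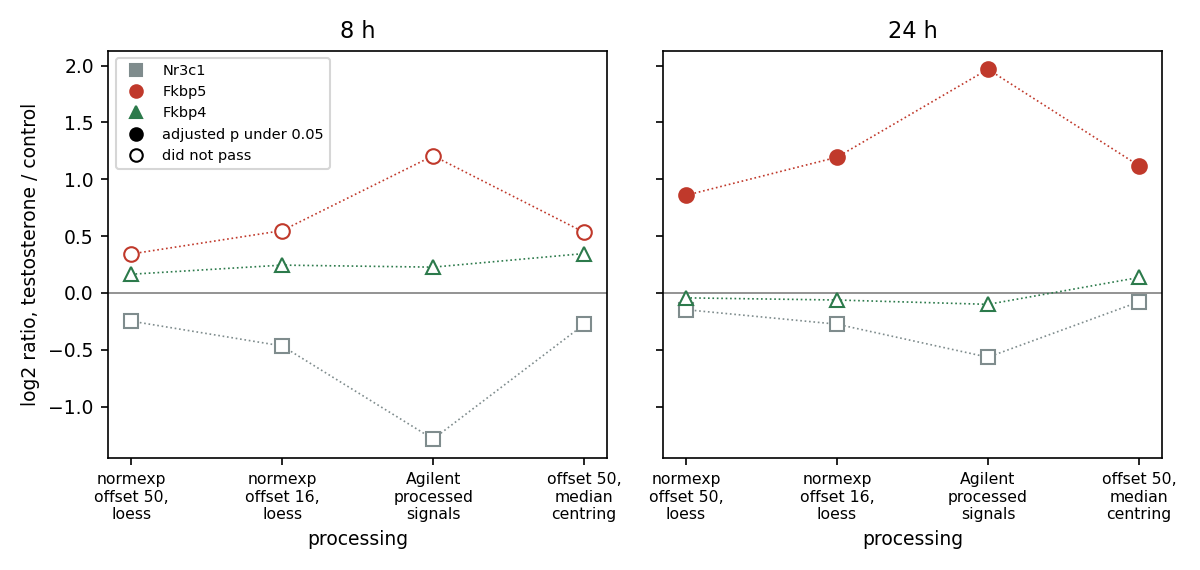
Mean log2 ratio (vertical axis) of the 3 tested members under 4 ways of correcting background and scaling the arrays (horizontal axis), at 8 h and 24 h; filled points passed an adjusted p of 0.05. Fkbp5 at 24 h passed in all 4 with values from 0.86 to 1.97, and Nr3c1 and Fkbp4 passed in none.

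In each group of RNA, the Fkbp5 level (log2 intensity after loess and Aquantile scaling) was lowest in controls at 8 h, at 6.46 ± 0.24, followed by controls at 24 h at 6.63 ± 0.28, treated RNA at 8 h at 6.81 ± 0.26 and treated RNA at 24 h at 7.49 ± 0.37 (SD, n = 4 each). The first 3 of these overlapped in range. Treated RNA at 24 h ran from 7.02 to 7.86 and controls at 24 h from 6.34 to 6.95, with no overlap. Treated RNA at 8 h reached 7.01, just under the lowest treated value at 24 h.

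Fkbp4, the cochaperone that favours receptor activity, did not pass at either time. At 8 h its log2 ratios were 0.23, 0.21, 0.18 and 0.03 in replicates 1 to 4, all above 0 and replicate 4 close to it. Their mean of 0.16 ± 0.09 (SD, n = 4; 95% confidence interval 0.02 to 0.31) had an adjusted p = 0.277 in limma. At 24 h the arrays stood at -0.13, -0.0003, -0.02 and -0.02, with a mean of -0.04 ± 0.06 (confidence interval -0.18 to 0.10, adjusted p = 0.758 in limma). All 8 arrays measured Fkbp4 well above background in both channels. The value at 24 h took the opposite sign when arrays were centred on their median instead of by loess (0.14, adjusted p = 0.325 in limma), a change that raised the median of all probes to 0.15.

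Fkbp4 levels were alike in the 4 groups of RNA. The means were 6.76 ± 0.17 in controls and 6.93 ± 0.08 in treated RNA at 8 h, and 6.96 ± 0.07 in controls and 6.92 ± 0.06 in treated RNA at 24 h (SD, n = 4 each). The ranges of all 4 groups overlapped. The difference between the times was -0.21 (adjusted p = 0.29 in limma).

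The log2 ratios of the 2 cochaperones were also set against each other within each array. At 24 h that of Fkbp5 exceeded that of Fkbp4 by 1.04, 0.93, 0.71 and 0.93 on the 4 arrays, a mean of 0.90 ± 0.14 (SD). An exact sign-flip test of this excess gave p = 0.125, the smallest that 4 arrays can give. At 8 h the excess was 0.27, 0.11, -0.09 and 0.42, a mean of 0.18 ± 0.22, and replicate 3 had Fkbp4 the higher of the pair. These are differences of ratios, within an array, and say nothing about which transcript is more abundant.

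**Figure D3:**
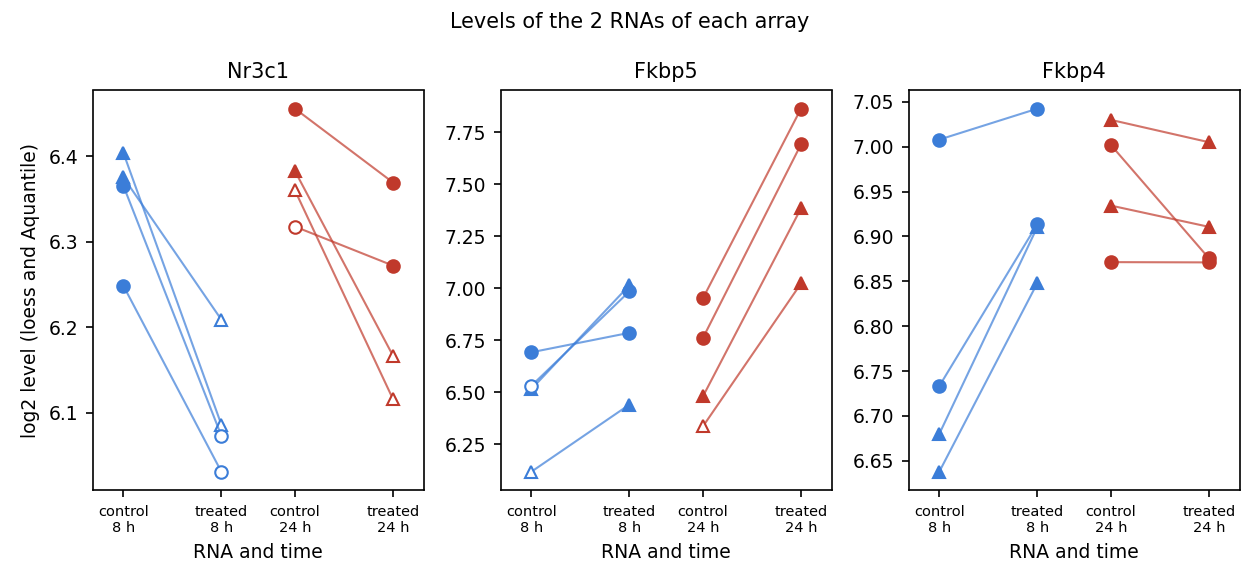
Level of each tested member (log2 intensity after loess and Aquantile scaling, vertical axis, with its own scale in each panel) in control and treated RNA at 8 h (blue) and 24 h (red), the 2 channels of an array joined by a line. Triangles are arrays with treated RNA in Cy3 and circles arrays with it in Cy5, open points were not well above background; the 4 Fkbp5 lines at 24 h all rise, and the 8 Nr3c1 lines all fall.

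Nr3c1, the receptor for corticosterone in the rat, was lower in treated RNA on every array by its tested probe, without passing the threshold. This probe met the filter only through the 8 h controls, so that group had to be high for the probe to be tested at all, and its values at 8 h are given as a description. At 8 h the log2 ratios of A_64_P269447 were -0.32, -0.17, -0.29 and -0.22 in replicates 1 to 4, which lie close together. The mean was -0.25 ± 0.07 (SD, n = 4; confidence interval -0.39 to -0.10), with an adjusted p = 0.27 in limma. At this time the probe was well above background in the control RNA on 4 of 4 arrays and in the treated RNA on 0 of 4. The treated level is therefore not a measured one, and its mean as read was 6.10. It was raised on each array to the lowest signal among probes well above background where it was under it. The control, the group that admitted the probe, then stood 1.18-fold higher (means of 6.35 and 6.11 on the log2 scale). This is no lower limit, because this probe could read as high without being well above background. In control RNA of replicate 4 at 24 h it read 6.36 in that state. The measured levels at 8 h were 6.03 to 6.21 in treated RNA and 6.25 to 6.40 in controls. Without replicate 2 of the 8 h arrays the log2 ratio was -0.30 and passed, with an adjusted p = 0.0309 in limma. Without each other array in turn its adjusted p at 8 h ran up to 0.911. Neither the 1.18-fold value nor the p-values at 8 h test a fall, as the high 8 h controls admitted the probe. From the processed signals the mean at 8 h was -1.29 ± 0.35 (adjusted p = 0.09 in limma).

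At 24 h the same Nr3c1 probe stood at -0.09, -0.05, -0.22 and -0.24. The mean was -0.15 ± 0.10 (SD, n = 4) with a confidence interval of -0.29 to -0.002 and an adjusted p = 0.22 in limma. It was well above background on 2 of 4 arrays in each channel, and the levels of treated RNA (6.12 to 6.37) and control RNA (6.32 to 6.46) overlapped. The processed signals gave -0.57 ± 0.46. The values differed with the dye: the mean was -0.23 on the 2 arrays with treated RNA in Cy3 and -0.07 on the 2 with it in Cy5, and the same means at 8 h were -0.24 and -0.26. The difference between the times was 0.10 (adjusted p = 0.626 in limma).

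The second Nr3c1 probe, A_44_P1003794, was well above background on 1 of 4 arrays in each of the 4 groups of RNA and was not kept for the test. Its ratios at 8 h were 0.17, -0.04, -0.12 and -0.02, with a mean of -0.004 ± 0.12 (SD, n = 4). At 24 h they were -0.14, -0.29, 0.05 and -0.09, with a mean of -0.12 ± 0.14. At this signal the probe cannot show whether Nr3c1 differed.

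Nr3c2, the receptor for aldosterone, could not be measured in this RNA. Neither of its probes was well above background in any channel of any of the 8 arrays, the one that ends at the stop codon included. The mean log2 ratios were 0.01 ± 0.19 at 8 h and -0.01 ± 0.08 at 24 h for A_43_P15261, and -0.13 ± 0.15 and 0.07 ± 0.09 for A_64_P014537 (SD, n = 4 each). With both channels at background, no fold change is given.

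The promoter windows of the reference (RefSeq on GRCr8, 250 bases before to 50 after each gene start) were searched on both strands for AGAACA, a hexamer bound by receptors of this family, and for the palindrome of AGAACA, 3 bases and TGTTCT, which contains that hexamer on each strand. The hexamer occurs in 20.7% of the 33469 windows and the palindrome in 5 (0.0149%). Neither was found in the windows of Fkbp5 and Fkbp4 or in the 2 windows of Nr3c1. This says only that these letters are not in these windows.

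Around the members, 5 lists of genes were followed, using the brightest kept probe of each gene. They were receptor chaperones, other FKBP family members, coactivators and corepressors, steroid-converting enzymes, and genes induced by glucocorticoids. Not every listed gene has a known part in steroid receptor function. At 24 h, 7.1% of all 10893 genes passed (4.17% higher, 2.93% lower) with a median log2 ratio of 0.0001. At 8 h 0.0276% passed, and no gene of the 5 lists was among them.

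The chaperone machinery that holds the receptors ready for hormone had 18 of 20 listed genes measured, of which 1 rose at 24 h, none fell and 17 did not pass. The median log2 ratio of the list was 0.10 at 8 h and 0.12 at 24 h, and 1 of its genes, Fkbpl, is also on the FKBP list. Hspa8, the constitutive HSC70 that delivers receptors to HSP90, rose by 0.50 ± 0.14 (SD, n = 4; adjusted p = 0.0307 in limma) on arrays at 0.51, 0.65, 0.54 and 0.32. Its other 3 kept probes stood at 0.58, 0.34 and 0.11, of which the first passed as well (adjusted p = 0.0162). The Hspa8 call was lost without any 1 of the 24 h arrays (adjusted p from 0.0563 to 0.158) and with median centring (0.92, adjusted p = 0.103). Hsp90aa1, the inducible HSP90, was at 0.38 ± 0.23 at 8 h and 0.28 ± 0.10 at 24 h, above 0 on all 8 arrays, without passing (adjusted p = 0.259 and 0.094 in limma). Its other kept probes stood at 0.01 and 0.42 at 24 h and did not pass (adjusted p = 0.98 and 0.0637). Hsp90ab1, the constitutive form, whose other kept probes stood at 0.39 and 0.11 at 24 h, was at -0.04 at 8 h and 0.19 at 24 h. Stip1, which hands receptors from HSP70 to HSP90, was at -0.002 and 0.10. Ptges3, the p23 that stabilises the mature complex, was at 0.24 and -0.15. Ppid, the cyclophilin that occupies the same HSP90 site as the FKBPs, was at 0.24 and -0.16. None of these passed at either time.

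Of the other FKBP family members, 9 of 15 were measured, and 1 rose at 24 h, none fell and 8 did not pass. The list's median was 0.00 at 8 h and 0.08 at 24 h. Fkbp2, which encodes FKBP13 of the endoplasmic reticulum, rose by 0.47 ± 0.06 (SD, n = 4; adjusted p = 0.00277 in limma), with arrays at 0.43, 0.41, 0.50 and 0.55, and stood at 0.11 at 8 h. The processed signals gave Fkbp2 0.45 at 24 h with an adjusted p = 0.07. Fkbp1a, the FKBP12 bound by tacrolimus, was at 0.15 at 8 h and 0.07 at 24 h and did not pass.

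No coactivator or corepressor passed at 24 h, where 11 of 13 were measured and the list's median was 0.02. Their log2 ratios ran from -0.24 to 0.26. Ncoa1, the coactivator SRC-1, was the lowest at -0.24 ± 0.26 (SD, n = 4; adjusted p = 0.073 in limma), after 0.09 at 8 h.

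Among steroid-converting enzymes 6 of 10 were measured, and 1 rose at 24 h, none fell and 5 did not pass, with a list median of -0.01. The gene was Hsd11b1, whose product regenerates active glucocorticoid inside the cell. Its log2 ratios at 24 h were 0.37, 0.29, 0.20 and 0.17, a mean of 0.26 ± 0.09 (SD, n = 4; adjusted p = 0.0372 in limma). At 8 h it was as high, at 0.33, 0.22, 0.33 and 0.29 (mean 0.29 ± 0.05), with an adjusted p = 0.217. The call for Hsd11b1 at 24 h was lost under 10 of 20 alternatives, among them the processed signals (0.34, adjusted p = 0.18) and leaving out any 1 of the 24 h arrays or replicate 3 or 4 of the 8 h arrays (0.23 to 0.28, adjusted p from 0.0593 to 0.206).

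Genes known to be induced by glucocorticoids, of which Fkbp5 is one, were followed to set its rise beside others of that kind. Of 18 listed genes other than Fkbp5, 16 were measured, and at 24 h 1 rose, 5 fell and 10 did not pass. Over all genes 7.1% passed at 24 h (4.17% higher, 2.93% lower). The list was chosen with earlier results of these data known, so its count is a description. The list's median was -0.10 at 8 h and -0.22 at 24 h. Klf15, a transcription factor of amino acid breakdown in muscle, fell by 1.10 (SD 0.13, n = 4; adjusted p = 4.2e-05 in limma). Its arrays at 24 h stood at -1.22, -1.11, -1.16 and -0.92, and at 8 h at -0.15, -0.26, -0.47 and -0.55. Fbxo32, a ubiquitin ligase of muscle atrophy, fell on the 24 h arrays to -2.40, -2.05, -3.16 and -2.30 (adjusted p = 0.000141). Sgk1, a serine/threonine kinase, fell by 0.49 (adjusted p = 0.0165), and Trim63, the ligase MuRF1, fell by 0.68 (adjusted p = 0.0202). Cebpb, a transcription factor, fell by 0.62 (adjusted p = 0.0353), while Mt2A, a metallothionein, rose by 0.62 (adjusted p = 0.0356). The other kept Mt2A probe stood at 0.35 and did not pass (adjusted p = 0.152), and with the replicate number as a block the first lost its call (adjusted p = 0.0612). Tsc22d3, which encodes GILZ, a standard marker of glucocorticoid action, was at 0.09 ± 0.43 at 8 h and -0.17 ± 0.47 at 24 h and did not pass. The calls for Klf15 and Fbxo32 at 24 h held under all 20 alternatives; those for Sgk1, Trim63, Cebpb and Mt2A were each lost without 3 of the 24 h arrays taken singly (replicates 2, 3 and 4 for Sgk1; 1, 3 and 4 for Trim63; 1, 2 and 3 for Cebpb and Mt2A), and that for Cebpb also without replicate 3 or 4 of the 8 h arrays. With median centring Sgk1, Trim63 and Cebpb did not pass, and with the processed signals Cebpb and Mt2A did not. Without replicate 3 of the 24 h arrays, 2 of the list's genes passed at that time, and without replicate 1 or replicate 2, 3 did.

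**Figure D4:**
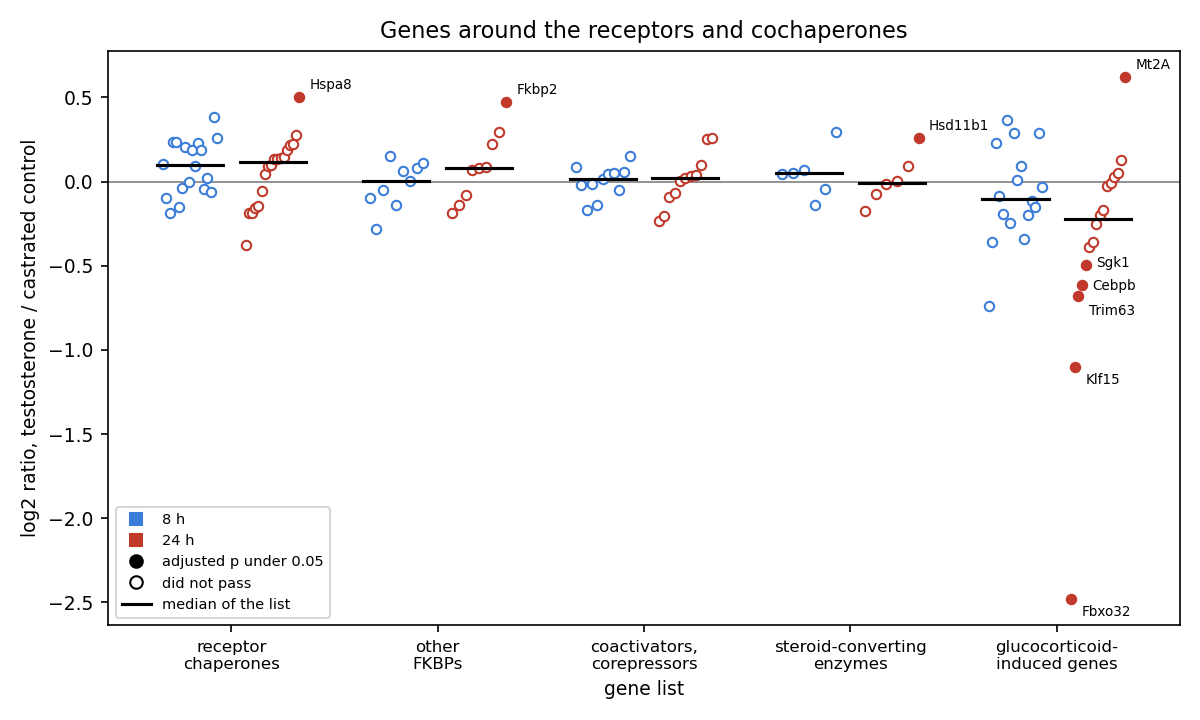
Log2 ratio of treated over control (vertical axis) of every measured gene in the 5 lists (horizontal axis), 8 h in blue and 24 h in red, filled where the adjusted p was under 0.05 and labelled with the gene; black bars are list medians. The list of glucocorticoid-induced genes holds 5 genes that fell and 1 that rose at 24 h, and each of the others holds at most 1 gene that passed.

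Between the times, 3 genes of this last list were lower at 24 h than at 8 h, where 1.3% of all genes passed in either direction and 0.569% as lower: Klf15 by -0.75 (adjusted p = 0.00936 in limma), Fbxo32 by -1.74 (adjusted p = 0.0207) and Klf9, another glucocorticoid-induced transcription factor, by -0.76 (adjusted p = 0.04). Klf9 was at 0.37 at 8 h and -0.39 at 24 h and passed at neither time (adjusted p = 0.27 and 0.0514). At 24 h Klf9 lay on the other side of the threshold under several alternatives, among them each time alone (adjusted p = 0.00951), the replicate block (0.0199), array weights (0.0229) and leaving out replicate 1, 2 or 3 of the 8 h arrays (0.0333 to 0.0422). The differences for Klf15, Fbxo32 and Klf9 were lost under 2, 4 and 11 of 19 alternatives. Without replicate 1 of the 24 h arrays none of the 3 passed (adjusted p = 0.0524, 0.089 and 0.0945), and with median centring none did either (adjusted p = 0.434, 0.111 and 0.53).

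The genes whose log2 ratios followed those of each tested member most closely over the 8 arrays were named, among 7308 with a symbol in the array file. For Fkbp5 these were Gbf1 (Pearson r = 0.96), Manba (0.95) and Afap1l1 (0.95), of which Manba also passed at 24 h, at 0.72 (adjusted p = 0.00182 in limma). For Fkbp4 they included Igfbp3 (0.95) and Trub2 (0.94), with Igfbp3 at -1.84 at 24 h. For Nr3c1 they were Git1 (0.96), Jsrp1 (0.95) and Prdx6 (0.95), none of which passed at 24 h. The 8 points share slides, times and dye orientations, and each set is the highest of 7308 correlations, so they are descriptions only.

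The RNA carried the markers of skeletal muscle: 10 of 12 fibre markers were measured, at mean levels of 12.95 to 13.47 in control and 12.87 to 13.23 in treated RNA (log2 intensity). The median log2 ratio of the fibre markers was -0.05 at 8 h and -0.31 at 24 h, where Acta1 (-0.44) and Actn3 (-0.55) passed as lower and Myh1 (1.33, after -1.55 at 8 h) as higher. Of the lymphocyte markers 0 of 4 were measured, of the erythrocyte markers 1 of 5 and of the adipocyte markers 2 of 5. Markers of other cells also differed at 24 h. The median log2 ratio of 6 macrophage markers, of 7 listed, was 0.21 to 0.36 on the 24 h arrays and -0.47 to -0.09 on the 8 h arrays, and 3 of them passed as higher at 24 h. Their mean level at 24 h was 6.87 to 7.01 in control and 7.15 to 7.39 in treated RNA. Among fibroblast markers 2 of 5 measured, both collagens, passed as higher at 24 h, while Pdgfra and Dcn stood at -0.03 and -0.002. Fabp4 of adipocytes (0.43, adjusted p = 0.00375 in limma) and Kdr of endothelium (0.36, adjusted p = 0.0414) also passed as higher at 24 h, the other adipocyte marker and the other 3 endothelial markers did not, and none of 3 Schwann cell markers passed. Hbb, the only erythrocyte marker measured, ran from -2.25 to 0.39 on the 8 h arrays and from -0.04 to 2.09 on the 24 h arrays and passed at neither time. The part of these markers in the Fkbp5 result was not tested. The share of gene spots well above background was 37.1% to 48.9% in treated and 34.8% to 41.8% in control RNA.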

How the data were processed

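Total RNA was labelled with a Quick Amp kit and hybridised to 8 two-colour Agilent arrays, per the labels' protocols. Per the submitters' processing notes, Agilent Feature Extraction 9.5.3.1 quantified the scans. The deposited mean signals and median local backgrounds are linear intensity values without normalization, and the processed signals are background-corrected, dye-normalized intensity values, per the file headers. The deposited LogRatio is the log10 of Cy5 over Cy3, per the file headers, and flags for background and outliers were taken from the same files. The authors' deposited log2 table equalled log2 of treated over control processed signals within 1.35e-05, with column medians of -0.144 to 0.0896.

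Mean signals were corrected by normexp (offset 50) and loess-normalized within arrays in limma 3.58.1 (R 4.3.3); control spots had no weight and outlier-flagged spots were dropped. Treated RNA was in Cy3 in replicates 1 and 2 at 8 h and replicates 3 and 4 at 24 h, and in Cy5 otherwise. Replicate spots were averaged by probe. Kept probes were well above background on at least 3 of 4 arrays in 1 of the 4 RNA groups. 1 model over 8 arrays had a coefficient per time and a probe-specific dye coefficient; lmFit and eBayes tested each time and their difference, two-sided, with Benjamini-Hochberg adjustment over all kept probes. On simulated data for the 24 h comparison over 12074 probes, 72% of changes of 0.5 and 95% of changes of 1 (log2) were recovered, with 6 false calls. Gene names came from the RefSeq gene table by accession for 18005 probes and by file symbol for 2668; 2480 carry only the array's own symbol and 7214 none. Array number and signal over background limit the precision.

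Members and lists were chosen with earlier results of these data known. Named genes were the members, up to 4 genes past the threshold in each list, 9 genes always named where measured, and the 3 genes most like each member (1 of these is not reported here); Klf9, Mt2A and Cebpb were named after their values were seen, as were the collagens, Pdgfra and Dcn among the markers. Alternatives covered background correction, normalization, filters, flags, the dye term, array weights, probe choice, each time alone, the replicate block and leaving out each array.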

Additional observations from a re-analysis of the deposited data

Results flagged for a closer look

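Fkbp5 at 24 h had 1 array apart from the others: replicate 3 stood at a log2 ratio of 0.69 and the other 3 at 0.90 to 0.93, a gap that takes up 0.89 of the group's range. Of 42 groups of 4 arrays examined in this way (members and named genes, at each time), this was the only 1 past the limit of 0.829, and chance alone passes about 1 in 20. In the processed signals the same array was the highest of the 4, at 2.30. The same array had the highest log2 ratio of Hbb, 2.09, against -0.04 to 0.46 on the other 24 h arrays, and without it Fkbp5 stood at 0.93 (adjusted p = 0.00209 in limma).

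Responses that differed between the times by the test of the difference were those of Klf15 (24 h minus 8 h, -0.75, adjusted p = 0.00936 in limma), Fbxo32 (-1.74, adjusted p = 0.0207) and Klf9 (-0.76, adjusted p = 0.04). Klf15 and Fbxo32 were below 0 on all 8 arrays. Klf9 was below 0 on 4 of 4 arrays at 24 h and above 0 on 3 of 4 at 8 h.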

How the results depend on the processing

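The rise of Fkbp5 at 24 h passed under all 20 alternatives (0.83 to 1.97 on the log2 scale, adjusted p from 2.51e-05 to 0.0141). Its difference between times passed under 1 of 19, array weights (0.60), and Fkbp4 at 24 h changed sign under 1, median centring (0.14). Nr3c1 at 8 h ran from -0.30 to -0.22 when single arrays were left out and passed without 1 of them, replicate 2 at 8 h. Its probe was kept only through the 8 h controls, so this pass is no test of a fall. An offset of 16, chosen after seeing the data, gave Fkbp5 1.19 at 24 h and 0.55 at 8 h.

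Counts of all probes past the threshold moved more. At 8 h (3 as reported) they were 0 with median centring or each time alone, 1 without the dye term, 18 with offset 16 and 0 to 1293 without single arrays, the highest without replicate 2 at 8 h. At 24 h (835) they were 437 with median centring (95.7% higher, against 60% as reported; this centring raised the median of all probes to 0.12 at 8 h and 0.15 at 24 h), 1708 with each time alone, 1667 with array weights and 208 to 1324 without single arrays, lowest without replicate 1 at 24 h and highest without replicate 1 at 8 h. For the difference (152) they were 83 with the processed signals or the authors' values, 0 with median centring, 306 with array weights, 273 with offset 16 and 33 to 616 without single arrays, lowest without replicate 1 at 24 h and highest without replicate 2 at 8 h. The difference could not be fitted with each time alone. The causes were not tested.

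List counts, recomputed under the same settings as a choice made after seeing the data, moved as well, and for some lists by much of the count reported. The chaperone list at 24 h (1) had 0 with median centring, 3 with each time alone, 5 with array weights, 2 with the replicate block and 0 to 3 without single arrays (3 without replicate 1 at 8 h); at 8 h it had 0 to 1 (1 without replicate 2 at 8 h). Other FKBPs had 2 with array weights, and coactivators and corepressors 1 with array weights or each time alone. Steroid-converting enzymes at 24 h (1) had 0 with the processed signals, the authors' values, median centring or the replicate block, and 0 to 1 without single arrays, as at 8 h (1 there without replicate 2). Glucocorticoid-induced genes at 24 h (6) had 3 with median centring and 2 to 8 without single arrays; at 8 h they had 0 to 5 (5 without replicate 2), and for the difference (3) 0 with median centring, 5 with offset 16 and 0 to 5 without single arrays (0 without replicate 1 at 24 h, 1 without replicate 3 at 24 h or replicate 4 at 8 h, 5 without replicate 2 at 8 h).

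Same-numbered arrays of the 2 times did not deviate together (correlations of -0.26, 0.17, -0.16 and -0.08), so the numbers were not taken as pairs. With the replicate block the counts were 8 at 8 h, 931 at 24 h and 342 for the difference, and Fkbp5 at 24 h (0.86, which the block cannot change in this balanced design) had an adjusted p = 0.00168. Low signal over background limits Nr3c1 and Nr3c2 most.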
